A study of Mus musculus with 8 samples.

Results

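Macrophage marker genes were followed through 8 RNA-seq libraries of cells collected as sternal chondrocytes: C1qa, C1qb, C1qc, Csf1r, Cd68, Tyrobp, Fcer1g, Lyz2 and Mrc1. They were chosen by name as genes of the macrophage lineage and are 9 of the 16432 genes in the authors' tables. Several of them are also made by osteoclasts, monocytes or neutrophils, and which cells their RNA came from was not tested. All mice were on the C57BL/6 background and were taken at embryonic day 18.5. Of the libraries 3 came from Col2a1Cre;Idh1 fl/+ cells (called Cre-Idh1), 3 from Col2a1Cre cells (Cre control) and 2 from Idh1 fl/+ cells (floxed control). The Cre control shares the Cre transgene with Cre-Idh1, and the floxed control shares the Idh1 allele without Cre. The sample labels write the allele as fl/+ and the series' design text writes fl/fl, and the sample labels were followed. Cre is driven by Col2a1, a collagen gene of chondrocytes, and the series describes the Col2a1Cre;Idh1 cells as chondrocytes expressing mutant Idh1. The preparations were enzyme digests of whole sterna collected by centrifugation, and the labels mention no sorting step. The labels do not say whether replicates came from separate animals, so the p-values measure only the spread between these libraries.

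Levels are the authors' normalized counts, in which reads are divided by a factor for each library. Depth was 31860422 to 44988540 recovered reads per library, of which the 9 markers took 2102 to 8565 reads. The chondrocyte identity of the preparations was plain in every library, as the cartilage collagen Col2a1 had normalized counts of 5586175 to 8277656. Idh1 itself had normalized counts of 3549, 3948 and 3465 in the Cre-Idh1 libraries. It had 3624, 3647 and 3991 in the Cre control libraries and 2263 and 2452 in the floxed control libraries. The tables give expression by gene, so the mutation itself was not checked. The 9 markers together took 249.97 of each 1000000 reads in Cre-Idh1 replicate 1 and 66.0 to 122 in the other libraries.

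Macrophages are phagocytes that live in or enter nearly every tissue, and in growing bone and cartilage they clear dying cells and matrix alongside osteoclasts, which arise from the same lineage. Their survival depends on the receptor CSF1R and its ligands CSF1 and IL-34. Many of their other surface receptors signal through small adaptor proteins, DAP12 (Tyrobp) and the Fc receptor gamma chain (Fcer1g). Tissue macrophages are also a main source of C1q, which binds immune complexes and dying cells and starts the classical complement pathway. C1q is assembled from A, B and C chains, and the genes of these chains lie side by side in the mouse genome in the order C1qb, C1qc and C1qa.

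Promoters of 6 of the 9 markers were matched in RefSeq (build GRCm38.p6), each running from 250 bases before to 50 bases after the gene's start. Shown are those of a pair of C1q chains and of Cd68, which rose in both comparisons below, and of Lyz2, which did not pass the test. They were picked by these results, so they cannot show a difference between called and uncalled markers. Capitals mark the letters GAGGAA, a form of the core of sites bound by the ETS factor PU.1 (Spi1), on either strand (TTCCTC is GAGGAA read on the other strand). C1qb is at chr4:136886151-136886450, C1qc at chr4:136892865-136893164, Cd68 at chr11:69666121-69666420 and Lyz2 at chr10:117282223-117282522, all on the minus strand and written 5′ to 3′ along the gene.
C1qb: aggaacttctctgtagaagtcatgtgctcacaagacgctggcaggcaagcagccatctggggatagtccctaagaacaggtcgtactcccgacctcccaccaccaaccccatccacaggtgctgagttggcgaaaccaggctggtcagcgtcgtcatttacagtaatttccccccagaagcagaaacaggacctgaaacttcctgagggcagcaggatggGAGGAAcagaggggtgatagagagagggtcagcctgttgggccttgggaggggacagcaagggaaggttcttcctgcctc
C1qc: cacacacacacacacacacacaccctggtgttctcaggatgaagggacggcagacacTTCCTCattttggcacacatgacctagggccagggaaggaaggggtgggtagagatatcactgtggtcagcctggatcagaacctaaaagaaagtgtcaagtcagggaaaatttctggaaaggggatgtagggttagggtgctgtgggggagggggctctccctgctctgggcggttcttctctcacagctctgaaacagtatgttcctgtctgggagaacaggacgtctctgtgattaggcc
Cd68: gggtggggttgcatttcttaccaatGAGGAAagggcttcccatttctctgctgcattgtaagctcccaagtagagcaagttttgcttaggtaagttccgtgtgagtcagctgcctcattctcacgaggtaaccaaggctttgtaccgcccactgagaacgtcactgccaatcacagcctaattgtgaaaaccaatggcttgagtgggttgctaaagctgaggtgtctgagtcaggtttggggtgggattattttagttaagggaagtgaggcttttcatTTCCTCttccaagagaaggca
Lyz2: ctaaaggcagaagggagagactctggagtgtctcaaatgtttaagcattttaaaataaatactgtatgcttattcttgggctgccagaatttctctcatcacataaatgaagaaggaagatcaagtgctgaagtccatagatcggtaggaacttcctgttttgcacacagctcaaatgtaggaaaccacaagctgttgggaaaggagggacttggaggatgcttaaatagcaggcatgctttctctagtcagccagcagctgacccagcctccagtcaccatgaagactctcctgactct
The C1qb promoter held GAGGAA starting at -30 relative to the gene's start. C1qc held GAGGAA on the opposite strand at -193, and Cd68 held it at -225 and at 29. Lyz2 held no match to these exact letters in this window, and other forms of the site were not searched. Of the promoters not printed, Mrc1 held 3 matches to GAGGAA and Fcer1g held none, and neither gene was called in either comparison. The motif is short and common, and 28.1% of 32544 RefSeq promoters of this length held it. The matches describe letters and show no binding.

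The 3 C1q chains showed the largest differences of the 9 markers. They rose together in Cre-Idh1 against both control groups, by 1.60 to 2.25 on the log2 scale against the Cre control and by 1.86 to 2.27 against the floxed control. Against the Cre control 4 of the 8 markers tested were higher and 0 were lower (C1qa, C1qb, C1qc and Cd68; limma on log2(normalized count + 1), adjusted over all genes, p under 0.05), where 9.8% of all genes tested were higher and 9.39% lower. Against the floxed control 5 of 9 were higher (the same 4 genes and Csf1r) and 0 were lower, where 7.47% of all genes were higher and 6.96% lower. The median log2 fold change of the markers was 0.90 against the Cre control and 1.02 against the floxed control, and the medians of all genes tested were -0.01 and 0.00. These counts and medians cover only markers that passed the minimum level, C1qa in both comparisons and C1qc against the Cre control through their Cre-Idh1 libraries, and are a description. Both comparisons use the same 3 Cre-Idh1 libraries. A raised median was not particular to the markers. In the same order the medians were 1.18 and 0.97 for the osteoclast list and 1.08 and 0.91 for the endothelial list. The erythroid list had medians of -0.69 and -0.65. In these bulk samples more cells of a type and more RNA per cell cannot be told apart.

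C1qb, the B chain, had normalized counts of 106, 52.9 and 46.7 in the Cre-Idh1 libraries. The control libraries lay close together, at 12.1, 13.7 and 12.4 in the Cre control and 12.7 and 12.3 in the floxed control. No Cre-Idh1 library came near the highest control. The group means were 68.7 ± 32.8 (SD, n = 3), 12.7 ± 0.86 (SD, n = 3) and 12.5 ± 0.30 (SD, n = 2), a ratio of 5.39 between the Cre-Idh1 and Cre control means. The log2 fold change was 2.25 ± 0.35 (SE) against the Cre control (limma adjusted p = 0.00363) and 2.27 ± 0.42 against the floxed control (limma adjusted p = 0.0142). The call against the Cre control held under all 13 alternatives tried, whereas the call against the floxed control did not hold without floxed control replicate 1 (limma adjusted p = 0.0787) or 2 (0.123).

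C1qc, the C chain, had normalized counts of 80.6, 24.5 and 59.5 in Cre-Idh1. It had 7.70, 13.7 and 13.5 in the Cre control and 10.7 and 14.0 in the floxed control. All 3 Cre-Idh1 libraries again lay above all 5 controls, with replicate 2 the lowest of its group. C1qc rose by 2.03 ± 0.46 on the log2 scale against the Cre control (limma adjusted p = 0.0178) and by 1.92 ± 0.52 against the floxed control (limma adjusted p = 0.0493). In the Cre control 2 of 3 libraries reached the minimum of 10. C1qc thus entered that test through its Cre-Idh1 libraries, and its call against the Cre control counts as no support. The first call did not hold without Cre-Idh1 replicate 1 (0.0511) or Cre control replicate 1 (0.0677) or 3 (0.0547). The second did not hold without Cre-Idh1 replicate 1 (0.102) or 3 (0.0772), without floxed control replicate 1 (0.225) or 2 (0.220), and with a pseudocount of 5 (0.0515).

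C1qa, the A chain, had normalized counts of 43.4, 21.6 and 35.1 in Cre-Idh1, from 42, 22 and 33 reads. The Cre control had 9.90, 18.3 and 5.17 and the floxed control 6.83 and 9.64, from 5 to 20 reads in each library. The groups did not overlap, but Cre control replicate 2 came close to Cre-Idh1 replicate 2. The log2 fold change was 1.60 ± 0.48 against the Cre control (limma adjusted p = 0.0475) and 1.86 ± 0.44 against the floxed control (limma adjusted p = 0.0315). The call against the Cre control was the least stable of those made: it was lost with edgeR (0.0511; edgeR called 19.1% of genes in either direction), with scaling to total reads (0.0603), and without Cre-Idh1 replicate 1 (0.124), 2 (0.0518) or 3 (0.0801) or Cre control replicate 1 (0.120) or 3 (0.157). The call against the floxed control did not hold without Cre-Idh1 replicate 1 (0.0832) or floxed control replicate 1 (0.183) or 2 (0.164), and C1qa passed the minimum level in both comparisons only through its Cre-Idh1 libraries, so its calls count as no support.

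**Figure D1:**
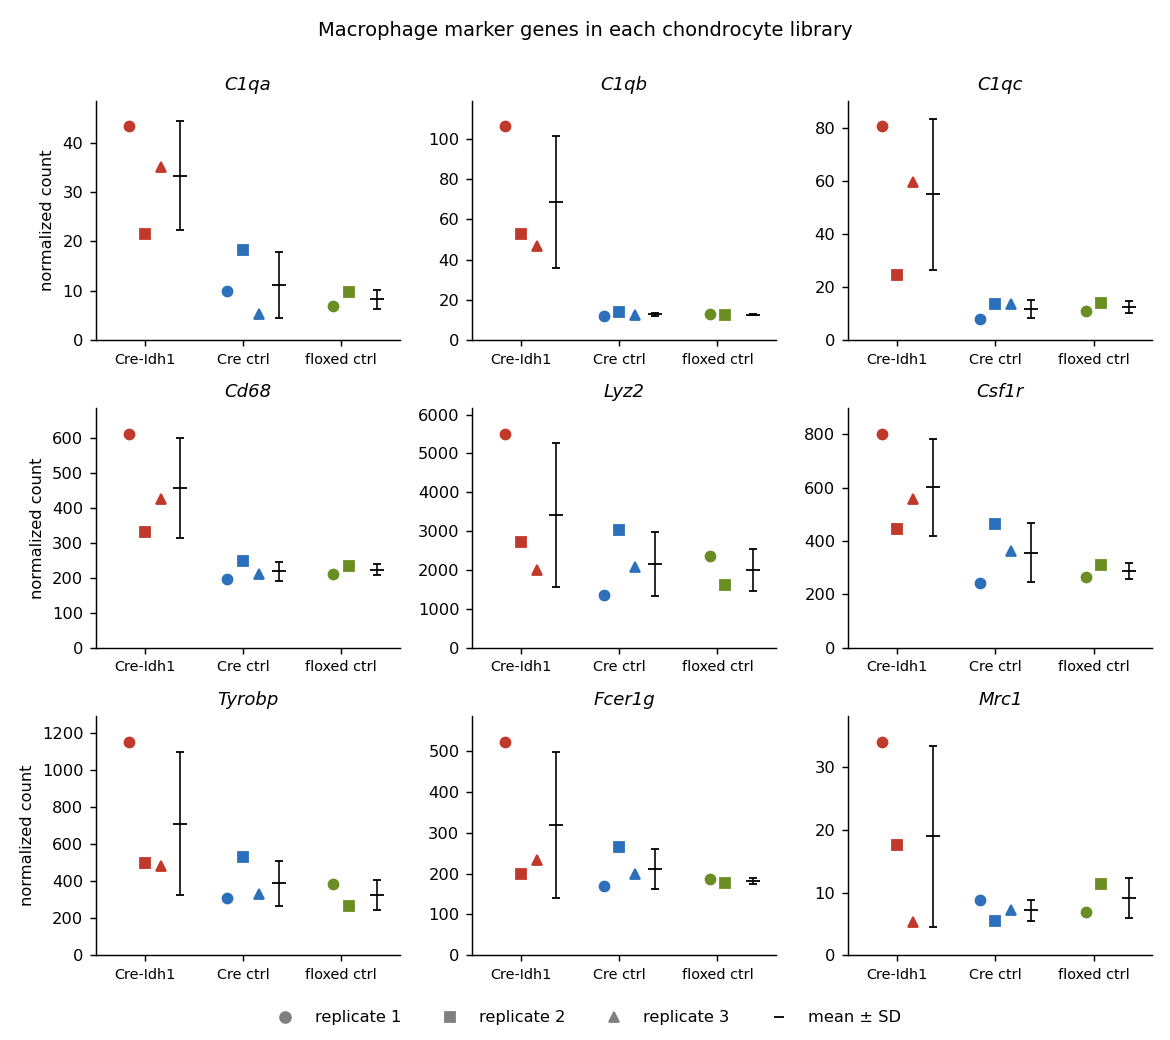
Normalized counts (y axis, from 0) of the 9 markers in each of the 8 libraries, grouped by genotype, with the mean and SD of each group beside the points. Cre-Idh1 replicate 1 is the highest library for all 9 markers, and for C1qa, C1qb, C1qc and Cd68 all 3 Cre-Idh1 libraries lie above all 5 controls.

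The other parts of the C1 complex and the early complement pathway were not called higher with C1q. Of the 11 genes of that list in the tables, 0 were higher by limma or edgeR against either control, with 6 and 3 at an unadjusted p under 0.05 in either direction by limma. Of all genes tested, limma called 9.8% higher and 9.39% lower against the Cre control, and 7.47% and 6.96% against the floxed control. Cd55, a regulator that breaks up complement convertases, had log2 fold changes of 1.02 and 0.94 (limma adjusted p = 0.0863 and 0.142) and was called against the Cre control by DESeq2 and in the authors' deposited table. C2, which forms a convertase with C4 and was named after its values were seen, had normalized counts of 18.6, 28.4 and 23.4 in Cre-Idh1 and 8.79 to 17.6 in the controls, with no overlap, and log2 fold changes of 0.88 and 1.24 (limma adjusted p = 0.129 and 0.0786, unadjusted p = 0.0416 and 0.0159), so it did not pass the test. Lower against the Cre control were 3 genes: C1ra, a protease of the C1 complex, by -0.84 on the log2 scale (limma adjusted p = 0.0225), Cr1l, a regulator that limits complement on the cell's own surface, by -0.52 (0.0056), and C4b, cleaved by C1, by -0.52 (0.0309). Against the floxed control Cr1l alone was lower, by -0.64 (limma adjusted p = 0.0111). The list's median log2 fold changes were 0.00 and 0.09. The floxed control also lay below the Cre control without overlap for C1ra and C4b, by -0.54 and -0.60 on the log2 scale. Limma called neither of these control differences (adjusted p = 0.553 and 0.452), whereas DESeq2 called that of C4b. Mean normalized counts of C4b were 3092 in Cre-Idh1, 4445 in the Cre control and 2930 in the floxed control. The call of C1ra did not hold without Cre-Idh1 replicate 1 (0.0552) or 2 (0.0585) or any Cre control library (up to 0.111), that of C4b without Cre-Idh1 replicate 1 (0.0816) or Cre control replicate 1 (0.0867) or 2 (0.111), and that of Cr1l against the floxed control without floxed control replicate 1 (0.111) or 2 (0.143).

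Of the lysosomal markers, Cd68 rose and Lyz2 did not pass the test. Cd68 encodes a glycoprotein of the lysosome membrane of macrophages and osteoclasts. Its normalized counts were 611, 330.4 and 424 in Cre-Idh1, 196, 249 and 211 in the Cre control and 211 and 233 in the floxed control. Every Cre-Idh1 library was above every control. The group means were 455 ± 143 (SD, n = 3), 219 ± 27.3 (SD, n = 3) and 222 ± 15.7 (SD, n = 2), so that Cre-Idh1 stood at 2.08 times the Cre control. The log2 fold change was 1.02 ± 0.22 against the Cre control (limma adjusted p = 0.0136) and 0.99 ± 0.25 against the floxed control (limma adjusted p = 0.0411). The first call did not hold without Cre control replicate 1 (0.0602) or 3 (0.0600), and the second without Cre-Idh1 replicate 1 (0.0588), without floxed control replicate 1 (0.208) or 2 (0.217), and with scaling to total reads (0.0512).

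Lyz2, lysozyme M, which breaks bacterial cell walls and is made by macrophages, monocytes and neutrophils, was the most abundant marker. Its normalized counts were 5502, 2712 and 2007 in Cre-Idh1, 1358, 3019 and 2078 in the Cre control and 2368 and 1602 in the floxed control. Only Cre-Idh1 replicate 1 stood above all controls, and Cre control replicate 2 exceeded the other two Cre-Idh1 libraries. The log2 fold changes of 0.60 ± 0.37 and 0.67 ± 0.39 did not pass the test (limma adjusted p = 0.287 and 0.277). Lyz2 made up 52.2% to 68.6% of the summed normalized counts of the 9 markers, so a sum over the markers mainly follows Lyz2. Its near-identical neighbour Lyz1 was not analysed here, and reads that fit both genes may have been lost or misplaced, so the Lyz2 level is uncertain.

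Csf1r, the receptor through which macrophages receive their survival signal, had normalized counts of 801, 445 and 556 in Cre-Idh1. It had 243, 462 and 362 in the Cre control and 266 and 309 in the floxed control. Cre control replicate 2 lay above Cre-Idh1 replicate 2, whereas the floxed control did not overlap with Cre-Idh1. The log2 fold change against the floxed control was 1.02 ± 0.24 (limma adjusted p = 0.0325), a call lost without floxed control replicate 1 (0.190) or 2 (0.179). The difference from the Cre control was 0.76 ± 0.26 (limma adjusted p = 0.0769). That difference passed the threshold with DESeq2 on whole reads (adjusted p = 0.0193), which called 23.3% of genes in either direction, and in the authors' deposited table (adjusted p = 0.0148), which called 23.1%.

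The ligand of the receptor, Csf1, is made by mesenchymal cells including chondrocytes and osteoblasts, and it differed between the groups more clearly than the receptor. Its normalized counts were 3842, 4517 and 3606 in Cre-Idh1, 1782, 2080 and 1925 in the Cre control and 1847 and 2100.0 in the floxed control. Here Cre-Idh1 replicate 1 did not stand out from its group. Csf1 rose by 1.04 ± 0.11 on the log2 scale against the Cre control (limma adjusted p = 0.000556) and 1.01 ± 0.13 against the floxed control (limma adjusted p = 0.00454). Il34, the other ligand, was low, at 31.0, 32.4 and 34.0 in Cre-Idh1, 27.5, 13.7 and 13.5 in the Cre control and 15.6 and 17.5 in the floxed control. It did not pass the test (log2 fold changes 0.87 and 0.93, limma adjusted p = 0.114 and 0.0977), although its Cre-Idh1 libraries were above all 5 controls. The call of Csf1 against the floxed control did not hold without floxed control replicate 2 (0.0541).

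The CSF1 axis list of 10 genes holds these ligands, transcription factors of the myeloid lineage and the receptor genes Csf2ra, Csf2rb, Csf2rb2 and Csf3r. Against the Cre control 3 were higher and 0 lower, where 9.8% of all genes were higher. Against the floxed control 4 were higher and 0 lower, where 7.47% of all genes were higher. None of the receptor genes was called by limma. Besides Csf1, Cebpa, a factor of early myeloid cells also used in fat cells, rose by 1.03 ± 0.14 and 1.02 ± 0.19 on the log2 scale (limma adjusted p = 0.00177 and 0.0154). Cebpb, a factor induced by inflammatory signals, rose by 0.74 ± 0.10 and 1.04 ± 0.10 (limma adjusted p = 0.00216 and 0.00208). Runx1, a factor of blood and early cartilage cells, was higher against the floxed control alone, by 0.68 (limma adjusted p = 0.0453). Without floxed control replicate 2 the calls of Cebpa (0.167) and Runx1 (0.352) against the floxed control were lost, and that of Runx1 also did not hold without floxed control replicate 1 (0.101) or Cre-Idh1 replicate 1 (0.0957) or 2 (0.105) and with scaling to total reads (0.0570). Spi1, which encodes the myeloid factor PU.1, had normalized counts of 670, 268 and 292 in Cre-Idh1, 172, 264 and 184 in the Cre control and 217 and 177 in the floxed control. Its log2 fold changes of 0.88 and 0.93 did not pass the test (limma adjusted p = 0.0971 and 0.141), but it was called by DESeq2 in both comparisons. Csf1, Cebpa and Cebpb are also made by cells other than macrophages, and which cells their RNA came from was not tested.

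**Figure D2:**
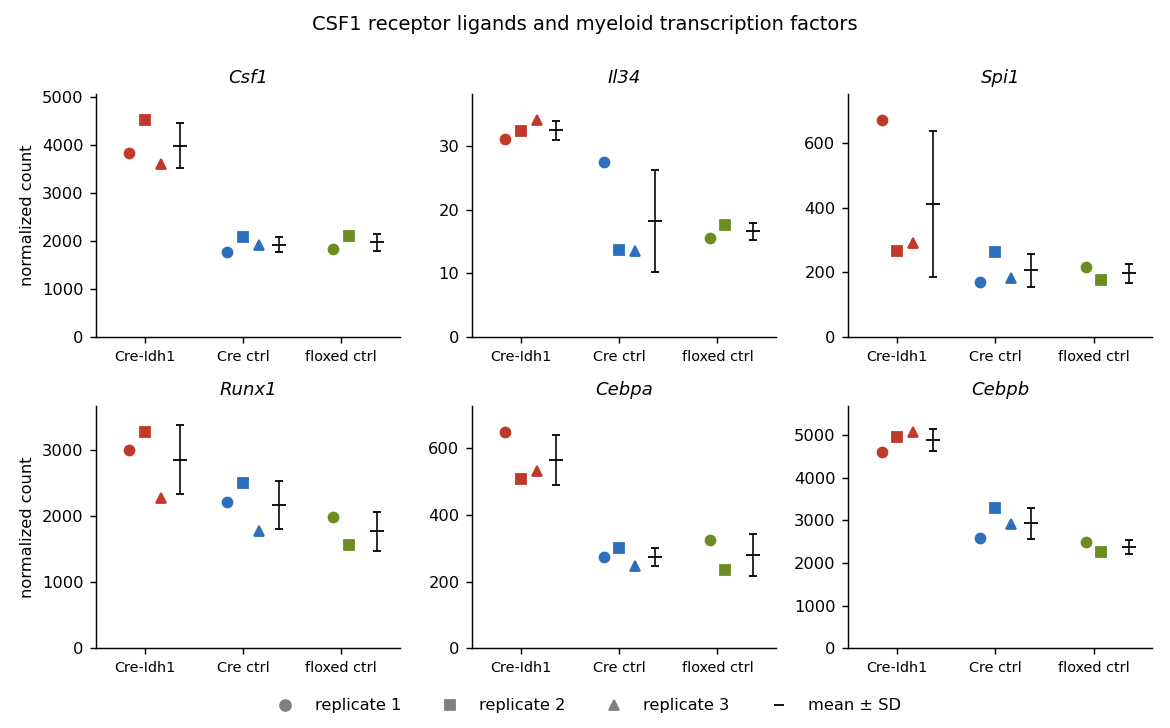
Normalized counts (y axis, from 0) of both CSF1 receptor ligands, and of the transcription factors Spi1, Runx1, Cebpa and Cebpb, in each library, with the mean and SD of each group. Csf1 and Cebpb are high in all 3 Cre-Idh1 libraries, whereas Spi1 is high mainly in Cre-Idh1 replicate 1.

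The adaptor genes Tyrobp and Fcer1g did not pass the test in either comparison. Tyrobp had normalized counts of 1153, 496 and 481 in Cre-Idh1, 309, 528 and 329 in the Cre control and 382 and 266 in the floxed control. Fcer1g had 523, 199 and 234, then 168, 264 and 198, then 187 and 176 in the same order. In both genes Cre-Idh1 replicate 1 was far above the other libraries of its group, and Cre control replicate 2 was above the other two Cre-Idh1 libraries. The log2 fold changes of Tyrobp were 0.78 ± 0.34 and 1.03 ± 0.38 (limma adjusted p = 0.135 and 0.114), and those of Fcer1g were 0.49 ± 0.34 and 0.67 ± 0.38 (limma adjusted p = 0.342 and 0.272). Tyrobp passed the threshold against the floxed control with DESeq2 on whole reads (adjusted p = 0.0164), which called 20.3% of genes there.

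Receptors, kinases and other signalling genes related to these adaptors, not all of which use them, were mostly not called either. Of 23 such genes in the tables, 1 of 20 tested was higher against the Cre control, where 9.8% of all genes were. Against the floxed control 3 of 21 were higher, where 7.47% of all genes were, with 0 of the list lower in either comparison. The gene higher in both was Trem2, a lipid-binding receptor of macrophages and osteoclasts that pairs with DAP12, with normalized counts of 45.5, 18.6 and 42.5 in Cre-Idh1, 7.70, 7.32 and 8.28 in the Cre control and 6.83 and 8.76 in the floxed control. All 3 Cre-Idh1 libraries were above all controls, with log2 fold changes of 1.96 ± 0.41 (limma adjusted p = 0.0129) and 1.96 ± 0.49 (limma adjusted p = 0.0374). All 5 control libraries lay under the minimum normalized count of 10 for Trem2, so it entered both tests only through its Cre-Idh1 libraries and these calls count as no support. Fcgr1, the high-affinity receptor for immunoglobulin G, and Plcg2, a signalling phospholipase, were higher against the floxed control, by 1.36 (limma adjusted p = 0.0414) and 0.77 (0.0453). None of these 3 calls against the floxed control held without floxed control replicate 1 or 2 (limma adjusted p from 0.105 to 0.344) or without Cre-Idh1 replicate 1 (0.0910, 0.0985 and 0.0877 for Trem2, Fcgr1 and Plcg2). Trem2 and Fcgr1 also lost it without Cre-Idh1 replicate 3 (0.0568 and 0.0581), and Plcg2 without Cre-Idh1 replicate 2 (0.0731), with scaling to total reads (0.0685) and with edgeR (0.0503), which called 14.5% of genes there.

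Mrc1, the mannose receptor CD206 of tissue-resident macrophages, was the least abundant marker. Its normalized counts were 34.1, 17.6 and 5.31 in Cre-Idh1, 8.80, 5.49 and 7.24 in the Cre control and 6.83 and 11.4 in the floxed control. Cre-Idh1 replicate 3 was the lowest of the 8 libraries, so the groups overlapped. Mrc1 fell below the minimum level for the test against the Cre control, and against the floxed control its log2 fold change was 0.70 ± 0.74 (limma adjusted p = 0.551). Per kilobase of exon, the mean normalized counts of the Cre control put Lyz2 highest at 1635 and Tyrobp next at 583. Fcer1g at 240.4 and Cd68 at 174 were in the middle and Csf1r at 61.6 below them. The C1q chains, at 11.7, 10.7 and 6.02 for C1qb, C1qa and C1qc, and Mrc1 at 1.13 were the lowest, so the markers that rose most were among the least abundant.

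**Figure D3:**
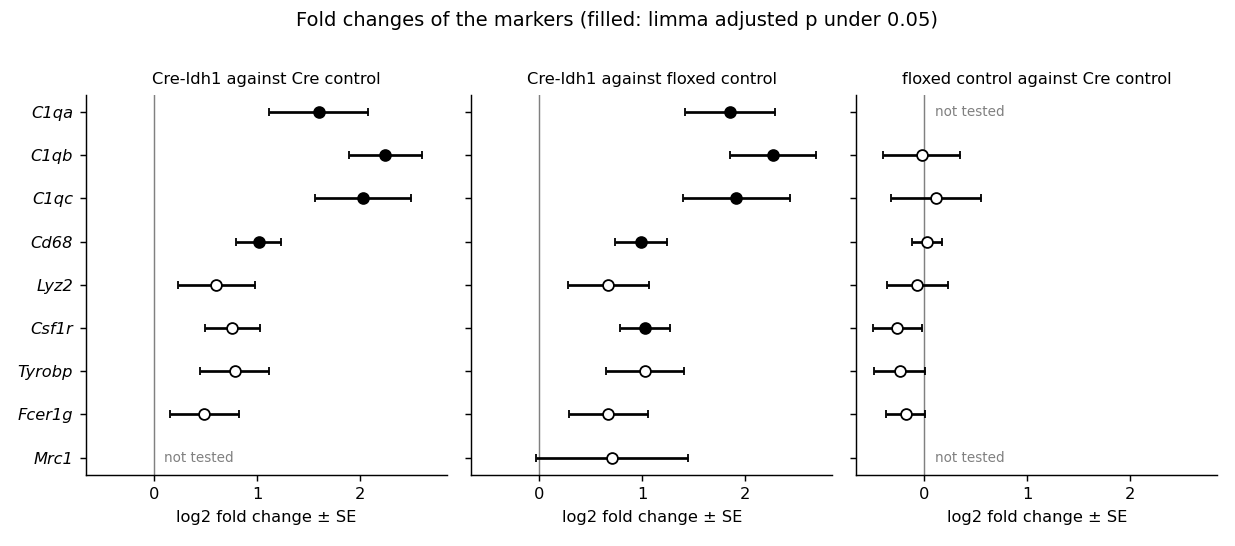
Log2 fold change with its SE (x axis) of each marker in the 3 comparisons, from limma on log2(normalized count + 1). Filled points passed an adjusted p of 0.05: 4 against the Cre control, 5 against the floxed control and 0 between the controls.

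Beyond the 9 markers, 24 of 29 other macrophage genes were in the tables. Against the Cre control 2 of 22 tested were higher and 2 lower, where 9.8% of all genes were higher and 9.39% lower. These counts were near the shares of all genes. Against the floxed control 4 of 24 were higher and 2 lower, where 7.47% of all genes were higher and 6.96% lower. The list's median log2 fold changes were 0.45 and 0.72. Ctss, cathepsin S, a lysosomal protease of antigen-presenting cells, had normalized counts of 436, 185 and 344 in Cre-Idh1, 75.9, 134 and 80.7 in the Cre control and 82.0 and 108 in the floxed control. It lay above all controls in all 3 Cre-Idh1 libraries, with log2 fold changes of 1.69 ± 0.33 and 1.68 ± 0.35 (limma adjusted p = 0.00936 and 0.0220). Siglec1, a sialic acid receptor of resident macrophages, was higher against the floxed control alone, by 2.78 (limma adjusted p = 0.0294), from 12, 13 and 31 reads in Cre-Idh1 and 1 and 3 in the floxed control. It passed the minimum there only through Cre-Idh1, so this call counts as no support. The remaining genes that were higher, Trem2 in both comparisons and Fcgr1 against the floxed control, are those described with the adaptors. Without floxed control replicate 2 the calls against that group were lost for Ctss (0.126) and Siglec1 (0.136), and without replicate 1 for Ctss (0.140) and Siglec1 (0.175). Siglec1 also did not hold without Cre-Idh1 replicate 2 (0.0545).

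Other genes of the same list fell, or were called higher only by other tools or not at all. Stab1, a scavenger receptor of resident macrophages and some endothelium, had log2 fold changes of 1.09 and 1.23 (limma adjusted p = 0.0609 and 0.0618). It was called against the Cre control by edgeR, DESeq2 and the authors' deposited table, and against the floxed control by DESeq2 and the authors' deposited table. DESeq2 and the authors' deposited table also called Msr1, a scavenger receptor, against the Cre control (limma log2 fold change 0.90, adjusted p = 0.0782) and Slc11a1, a metal transporter of phagosomes, against the floxed control (1.08, 0.118). These 3 genes were named after their values were seen. F13a1, the A chain of coagulation factor XIII, made by resident macrophages and also by chondrocytes, fell by 1.53 and by 1.63 on the log2 scale (limma adjusted p = 0.000174 and 0.00187). Its normalized counts were 1744, 2090.5 and 1529.6 in Cre-Idh1 and 4826 to 5657 in the controls. Mertk, a receptor for dying cells that is also made outside the macrophage lineage, was lower by -1.18 and -0.90 (limma adjusted p = 0.000346 and 0.00757), the second call being lost without floxed control replicate 1 (0.0801) or 2 (0.0544). Adgre1, which encodes the macrophage antigen F4/80, had normalized counts of 197, 122 and 89.2 in Cre-Idh1, 58.3, 127 and 113 in the Cre control and 68.3 and 78.0 in the floxed control. Itgam, the CD11b integrin chain of macrophages, monocytes and neutrophils, had 2859, 1044 and 870.0, then 932, 1322 and 815, then 1131 and 730.1. The groups overlapped for Itgam, and for Adgre1 against the Cre control. Neither gene passed the test (limma adjusted p = 0.410 and 0.148 for Adgre1, 0.445 and 0.424 for Itgam). Cx3cr1 and Folr2, both of resident macrophages and named after their values were seen, were at 1.96 to 14.5 in the Cre-Idh1 libraries and 9.76 to 24.8 in the controls, and did not pass the test either.

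Of 12 genes of macrophage activation in the tables, 11 were tested. In each comparison 1 was higher by limma or edgeR, where limma called 9.8% and 7.47% of all genes higher. That gene, Ccl2, a chemokine that draws monocytes and is made by macrophages and mesenchymal cells, had normalized counts of 37.2, 126 and 47.8 in Cre-Idh1 and 6.60 to 15.8 in the controls. It rose by 2.73 ± 0.48 against the Cre control (limma adjusted p = 0.00577; it entered this test through its Cre-Idh1 libraries) and 2.14 ± 0.54 against the floxed control (limma adjusted p = 0.0384). The second call did not hold without Cre-Idh1 replicate 2 (0.0623) or floxed control replicate 1 (0.1998) or 2 (0.180). Its highest library was Cre-Idh1 replicate 2, unlike the 9 markers. Cxcl10, an interferon-induced chemokine named after its values were seen, was called in addition by DESeq2 and the authors' deposited table in both comparisons (limma log2 fold changes 1.01 and 1.62, adjusted p = 0.124 and 0.0859). Its normalized counts were 152, 319.6 and 79.7 in Cre-Idh1 and 39.1 to 78.7 in the controls, so the groups did not overlap. Il1b, a cytokine of activated macrophages named after its values were seen, had 575, 545 and 259 in Cre-Idh1 and 215 to 516 in the controls and did not pass the test.

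Between the floxed and the Cre control, which differ in the Cre transgene and in the Idh1 allele, no marker was called. Of the 7 markers tested 0 were higher and 0 lower, also at an unadjusted p under 0.05 by limma and with edgeR, DESeq2 and the authors' deposited table at an adjusted p under 0.05. Of all genes, 0% were higher and 0.0134% lower in the floxed control. At an unadjusted p under 0.05, 7.62% of genes differed, and edgeR, DESeq2 and the authors' deposited table called 0.0134%, 0.578% and 0.219%. The log2 fold changes of the markers ranged from -0.26 ± 0.24 (Csf1r) to 0.11 ± 0.44 (C1qc), with limma adjusted p from 0.830 to 0.993. C1qa and Mrc1 were below the minimum level for this test.

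Cre-Idh1 replicate 1 was the highest of the 8 libraries for 9 of 9 markers. The lowest library of the group was replicate 2 for C1qa, C1qc, Cd68, Csf1r and Fcer1g and replicate 3 for C1qb, Lyz2, Tyrobp and Mrc1. The level of replicate 1 relative to the mean of the other two Cre-Idh1 libraries was 1.53 for C1qa, 1.60 for Csf1r and 1.62 for Cd68. It was 1.92 for C1qc, 2.14 for C1qb, 2.33 for Lyz2, 2.36 for Tyrobp, 2.42 for Fcer1g and 2.97 for Mrc1. Replicates 2 and 3 taken alone averaged 3.94 times the mean of the 5 controls for C1qb, 3.52 times for C1qc and 2.84 times for C1qa. Their mean was 1.71 times the controls for Cd68 and 1.52 times for Csf1r. The rest were nearer to the controls, at 1.44 for Mrc1, 1.35 for Tyrobp, 1.13 for Lyz2 and 1.09 for Fcer1g. Without replicate 1, C1qb and Cd68 were called against the Cre control and C1qb and Csf1r against the floxed control. The median SD of the markers within Cre-Idh1 was 0.71 on the log2 scale, against 0.21 for all genes in the same libraries. The markers also varied more than all genes within the Cre control (0.42 against 0.12) and the floxed control (0.25 against 0.10).

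All 3 Cre-Idh1 libraries were above all 5 controls for 4 of 9 markers, C1qa, C1qb, C1qc and Cd68, as was the case for 17% of all genes listed. Against the Cre control the groups did not overlap, with Cre-Idh1 higher, for the same 4 markers (20.1% of genes tested), and against the floxed control for 7 of 9 (26.6%). In the floxed comparison Lyz2 and Mrc1 overlapped. Between the floxed and the Cre control the libraries overlapped for all 9 markers, where 14.1% of genes were higher and 10.7% lower in the floxed control with no overlap.

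Genes of leukocytes in general, macrophages included, were also highest in replicate 1. The 16 pan-leukocyte genes, among them Ptprc (CD45), were each highest in Cre-Idh1 replicate 1, and their summed normalized counts were 18033, 7683 and 6428 in Cre-Idh1, 6126 to 9512 in the Cre control and 6279.97 to 7959 in the floxed control. All 16 had a positive log2 fold change in both comparisons, with medians of 0.44 against the Cre control and 0.63 against the floxed control. Of all genes tested, 7281 of 14851 and 7633 of 15212 were positive. None of the 16 was called by limma in either comparison, where 9.8% and 7.47% of all genes were called higher. In each, 2 of the 16 had an unadjusted p under 0.05 by limma, and none of the 16 was listed at 0 in any library. With edgeR 0 were called in each, and with DESeq2 1 (Spi1) against the Cre control and 3 (Spi1, Laptm5 and Cd52) against the floxed control. The authors' deposited table called Spi1 against the Cre control and Spi1, Cd52 and Hcls1 against the floxed control. Ptprc itself had 1779, 667 and 315 in Cre-Idh1, 521, 856 and 552 in the Cre control and 747 and 558 in the floxed control, so that Cre-Idh1 replicate 3 had the lowest level of all. On the mean log2 scale relative to the 5 controls, the pan-leukocyte genes stood at 1.43, 0.15 and -0.09 in the 3 Cre-Idh1 libraries, and the 9 markers at 1.91, 0.81 and 0.87. The part of leukocyte content in the marker differences was not tested.

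Lists of other cell types that a sternal digest can hold showed where else the libraries differed. Neutrophil genes, 12 in the tables, summed to 26946, 10108 and 6738 in Cre-Idh1, 6876 to 14057 in the Cre control and 6777 to 11044 in the floxed control. Lower against the Cre control were Elane (neutrophil elastase) and Mpo (myeloperoxidase), granule genes of immature neutrophils, by -2.66 and -1.69 (limma adjusted p = 0.0243 and 0.0497), and none of the list was higher. Elane passed the minimum only through the Cre control libraries. Its limma call did not hold when any Cre control library was left out (0.0630 to 0.0920). Elane was called by edgeR, DESeq2 and the authors' deposited table in both comparisons, whereas limma called no neutrophil gene against the floxed control. The call of Mpo did not hold without Cre-Idh1 replicate 1 (0.0574) or any Cre control library (up to 0.163), with edgeR (0.0600) and with DESeq2 (0.110). None of 6 monocyte genes, 7 dendritic cell and MHC class II genes or 8 erythroid genes was called by limma in either comparison. At an unadjusted p under 0.05 these counts were 0, 1 and 0 against the Cre control and 1, 2 and 0 against the floxed control. Of these lists edgeR called 0 genes, DESeq2 called H2-Ab1 against the Cre control, and the authors' deposited table called H2-Ab1 there and Cd74 against the floxed control. The erythroid sums ran from 2594 to 15519 in Cre-Idh1, from 3100.3 to 17173 in the Cre control and from 7137 to 11044 in the floxed control, so erythroid RNA varied among libraries of the same group. Of 5 mast cell genes in the tables Gata2, a factor also used by endothelium and blood progenitors, was higher by 1.64 and 2.12 (limma adjusted p = 0.000783 and 0.00184), and of 5 lymphocyte genes Cd3d, a T cell receptor chain, was higher against the floxed control alone, by 3.21 (limma adjusted p = 0.0212, and 0.183 without floxed control replicate 2), where it passed the minimum only through Cre-Idh1.

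Osteoclasts share the lineage and several of the markers, Cd68, Csf1r, Tyrobp and Trem2 among them. Their list, 9 genes in the tables, summed to 10854, 4468 and 5887 in Cre-Idh1, 3612 to 5200.1 in the Cre control and 3842 to 4453 in the floxed control, with 0 genes listed at 0. Higher against the Cre control were 3 of 8 tested, where 9.8% of all genes were higher. They were Atp6v0d2, a proton pump subunit, by 1.55 (limma adjusted p = 0.0421), Tnfrsf11a, the RANK receptor, by 1.53 (0.0194), and Itgb3, an integrin chain, by 0.58 (0.0477). Against the floxed control 0 of 9 were called by limma (5 at an unadjusted p under 0.05) and 0 by edgeR. There DESeq2 called 5, the same 3 genes with Acp5 and Ocstamp, and the authors' deposited table called 4, the same 3 with Ocstamp, where these called 20.3% and 24.9% of all genes. None of the 3 calls against the Cre control held without Cre control replicate 1 (0.132, 0.0725 and 0.111 in the order above) or 3 (0.153, 0.0697 and 0.123). Atp6v0d2 and Itgb3 were also lost without Cre-Idh1 replicate 1 (0.0929 and 0.105) and with scaling to total reads (0.0568 and 0.107). Itgb3 lost its call without Cre control replicate 2 (0.152) and in the fit of all 8 libraries (0.0734), and Atp6v0d2 without Cre-Idh1 replicate 3 (0.0562). Acp5, the acid phosphatase that stains osteoclasts, had 937, 277 and 566 in Cre-Idh1, 243, 341 and 237 in the Cre control and 272 and 238 in the floxed control. Ctsk, cathepsin K, had a log2 fold change of 0.14 against the Cre control (limma adjusted p = 0.548). Neither Acp5 nor Ctsk passed the test by limma. The part of osteoclasts in the levels of Cd68, Csf1r and Tyrobp was not tested.

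Endothelial genes, 12 in the tables, summed to 1153, 413 and 974 in Cre-Idh1, 349 to 415 in the Cre control and 368 to 555 in the floxed control. Tie1, a receptor of blood and lymph vessels, and Prox1, a factor of lymph vessels also used in other tissues, were higher against the Cre control. They rose by 1.88 and 1.68 (limma adjusted p = 0.0190 and 0.0234), where limma called 9.8% of all genes higher. Against the floxed control 0 genes of the list were called by limma or edgeR, where limma called 7.47% of all genes higher. There 1 had an unadjusted p under 0.05 by limma, and DESeq2 and the authors' deposited table called Cdh5. DESeq2 called 7 of the 12 against the Cre control, where it called 23.3% of all genes in either direction. Tie1 did not hold without Cre-Idh1 replicate 1 (0.0516) or Cre control replicate 1 (0.0725) or 3 (0.0750), and Prox1 without Cre control replicate 2 (0.0809) or 3 (0.0934) and in a fit of all 8 libraries together (0.0848). Pecam1, the CD31 adhesion protein, had 269, 89.2 and 182 in Cre-Idh1, 70.4, 93.3 and 98.3 in the Cre control and 118 and 90.3 in the floxed control. Endothelial and osteoclast genes were thus high in Cre-Idh1 replicates 1 and 3, while neutrophil and pan-leukocyte genes were high in replicate 1 alone. The 12 chondrocyte genes spanned a narrow range between libraries, from -0.29 to 0.08 on the mean log2 scale. Cre-Idh1 replicates 1, 2 and 3 stood at -0.29, -0.16 and -0.15, each below every control library (-0.14 to 0.08). The margin was small, as replicate 3 was at -0.149 and Cre control replicate 1 at -0.143. The summed normalized counts of these genes did not show this order. They were 7912253, 10133802 and 10447344 in Cre-Idh1, 7579140 to 9552659 in the Cre control and 9115111 to 10259372 in the floxed control. Matn3 and Matn1, both matrix proteins of cartilage, were lower against the Cre control by -1.07 and -0.39 (limma adjusted p = 0.000354 and 0.0328). Matn3 was also lower against the floxed control (-1.20, limma adjusted p = 0.0027). Matn1 did not hold without Cre-Idh1 replicate 2 (0.0804) or any Cre control library (up to 0.122). Of 10 genes of fibroblasts and perichondrium, Pdgfra, Prrx1 and Lum were lower against both controls and none was higher. Limma called 9.39% of all genes lower against the Cre control and 6.96% against the floxed control. The calls of Pdgfra and Lum against the floxed control did not hold without floxed control replicate 1 (0.0847 and 0.0925) or 2 (0.0544 and 0.228), and Lum was lost against the Cre control without Cre-Idh1 replicate 1 (0.0610) or any Cre control library (up to 0.141).

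**Figure D4:**
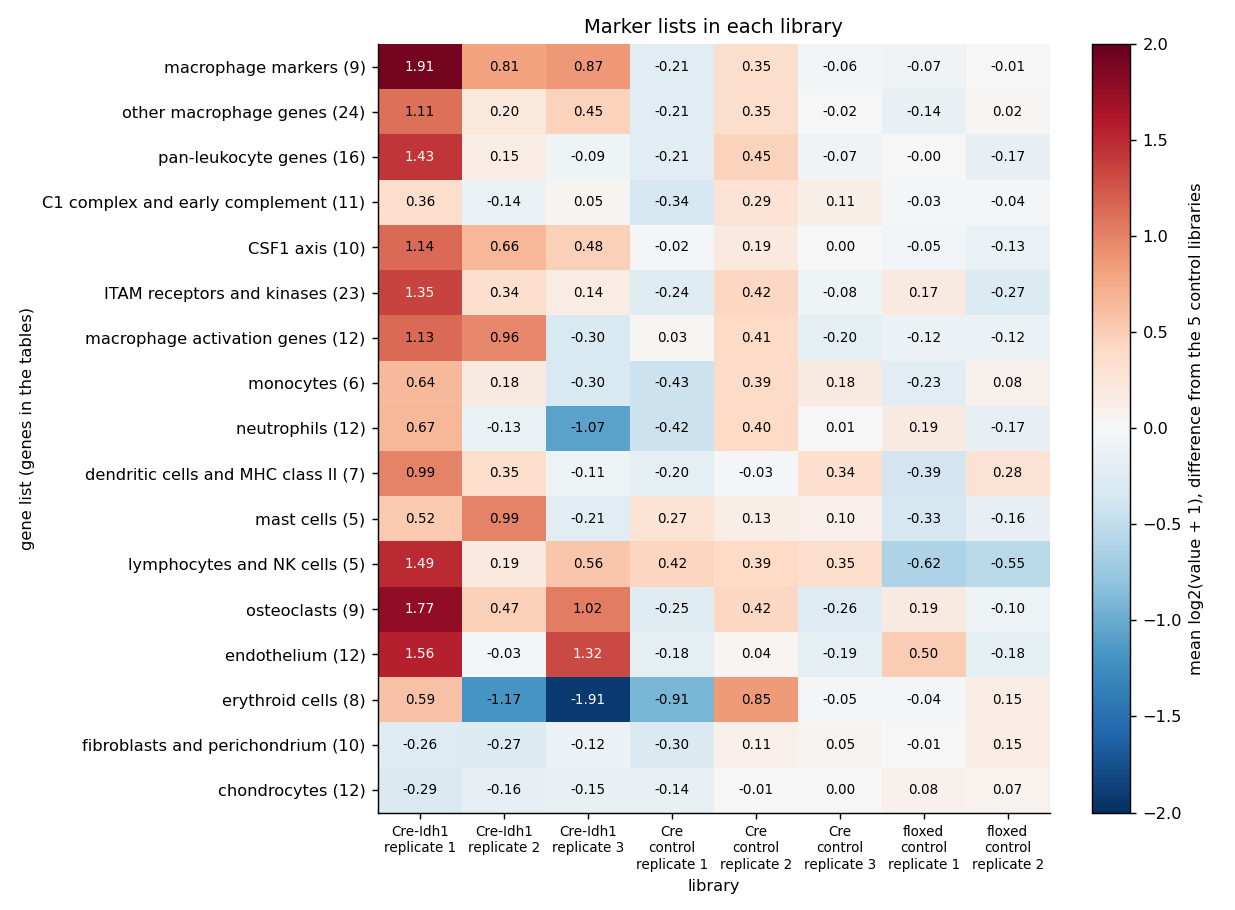
Mean log2(normalized count + 1) of each marker list (rows, with the number of genes in the tables) in each library (columns), as the difference from the mean of the 5 control libraries. Macrophage markers are at 1.91, 0.81 and 0.87 in the 3 Cre-Idh1 libraries, pan-leukocyte genes at 1.43, 0.15 and -0.09, and chondrocyte genes between -0.29 and -0.15.

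To place each marker beside the leukocyte content of its own library, its log2 level was set against the mean of the 16 pan-leukocyte genes, with the 5 controls centred at 0. This measure was chosen after values were seen and is given as a description, with no test. As macrophages are leukocytes, it does not separate them from other leukocytes. C1qb then stood at 1.55, 1.84 and 1.90 in Cre-Idh1 replicates 1, 2 and 3 and at -0.34 to 0.16 in the controls. C1qc stood at 1.26, 0.86 and 2.34, with the controls at -0.33 to 0.41, and C1qa at 0.70, 1.001 and 1.91, with the controls at -0.65 to 0.47. For all 3 chains every Cre-Idh1 library remained above every control. Tyrobp also did, by less, at 0.27 to 0.53 with the controls at -0.24 to 0.13.

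Cd68 and Csf1r were spread out on this scale. Cd68 stood at 0.04, 0.44 and 1.04 in Cre-Idh1 and at -0.27 to 0.26 in the controls, and Csf1r at -0.11, 0.33 and 0.88 against -0.27 to 0.25. Replicate 1, the highest in raw level, was the lowest of its group here and lay within the controls. Fcer1g ranged from -0.13 to 0.34 in Cre-Idh1 and from -0.07 to 0.08 in the controls, and Lyz2 from 0.02 to 0.29 and from -0.35 to 0.24, so both overlapped, as did Mrc1. Among other macrophage genes named above, Trem2 (0.98 to 2.40, controls -0.53 to 0.33) and Ctss (0.77 to 1.95, controls -0.19 to 0.37) were above all controls, and Fcgr1, Adgre1 and Itgam overlapped. Summed over the 3 chains, C1q had 130 normalized counts per 1000 of Ptprc in Cre-Idh1 replicate 1, 149 in replicate 2 and 448 in replicate 3. The Cre control libraries had 57.0, 53.4 and 56.3 and the floxed control libraries 40.5 and 64.4. Replicate 3 had the lowest Ptprc level of all libraries, and its C1q sum was 141 beside 231 in replicate 1 and 99.0 in replicate 2.

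**Figure D5:**
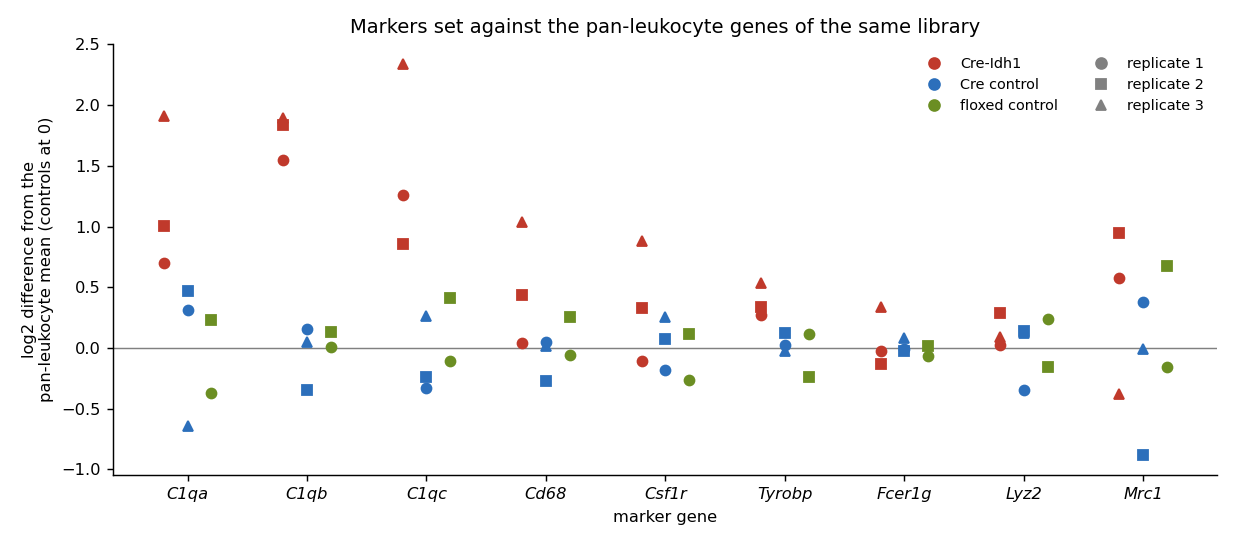
Log2 level of each marker minus the mean log2 level of the 16 pan-leukocyte genes of the same library, with the mean of the 5 controls at 0 (y axis), for each of the 8 libraries. The 3 C1q genes lie at 0.70 to 2.34 in Cre-Idh1 and at -0.65 to 0.47 in the controls, whereas Lyz2 and Fcer1g overlap.

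The genes most like the markers were found from the mean log2 level of the 9 markers in each library, among 15496 genes that are no member. Over the 8 libraries the 12 with the highest Pearson r were Diap1 (0.985), Cotl1 (0.9805), Irf2bp2 (0.978), Tmsb4x, Trp53i11, Pnpla2, Sfpi1 (the older symbol of Spi1, 0.967), Cd36, Prdm1, B4galt5, Emilin2 and Rassf2 (0.963). Diap1 and Cotl1 encode proteins that act on the actin cytoskeleton, and Cd36 a receptor for lipids and dying cells on macrophages and other cells. Cotl1 had normalized counts of 1721, 1139 and 1133 in Cre-Idh1 and 662 to 955 in the controls. These values follow the genotype as well as replicate 1, since the group means differ.

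With each gene and the markers taken as deviations from their group means, so that only the spread within groups counted, the 12 nearest were Ifi204 (0.998), Cd52 (0.991), Laptm5 (0.989), Pde2a, Nras, Cyfip2, Pik3r5, A930024E05Rik, Arap3, Myo1g, Cd300lf and Irf8 (0.979). Cd52 and Laptm5 are membrane proteins of leukocytes and belong to the pan-leukocyte list, and Irf8 is a factor of monocytes and dendritic cells. Laptm5 had normalized counts of 1333, 505 and 600.1 in Cre-Idh1 and 364 to 541 in the controls. No gene was named by both measures. All of these correlations share the same 8 libraries, of which Cre-Idh1 replicate 1 was the highest for each marker, and they are given without a p.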

How the data were processed

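Expression was taken from 3 deposited tables, 1 per pair of groups, that cover 8 sternal chondrocyte libraries. The submitters' processing notes name DESeq2, HTSeq, STAR, cutadapt and Trim Galore. Not given in the sources used here are versions, the genome build and the use of strand in counting. The signal is the authors' normalized value per gene and library (here normalized count), per the file headers. Whole reads were recovered from it, with 100% of values whole within 0.001 reads. The log2 fold change and the Wald score in each deposited table are the authors' own, as are its p-value and adjusted p-value, per the file headers.

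Because the deposited values are normalized, limma 3.58.1 (R 4.3.3) with a trend on log2(value + 1) was the main test. It was fitted for each pair of groups, and a gene entered when its value reached 10 in 2 libraries (floxed control comparisons) or 3 (Cre-Idh1 with the Cre control). Benjamini-Hochberg adjustment covered all genes tested. Fold changes on this scale understate low genes. Groups came from the sample labels, and replicate numbers follow the order of the records and pair nothing. Alternatives were edgeR 4.0.16 and DESeq2 1.42.0 on whole reads, a pseudocount of 5, no filter, scaling to total reads, 1 fit of all 8 libraries, a threshold of 0.1 and leaving out each library. The scripts were tested on simulated data.

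The markers, lists and tests were chosen with earlier results of these data known. The genes named are the 9 markers, the 12 most like them by each of 2 measures, the 2 largest called changes of each list, and fixed genes such as Csf1, Ptprc and Col2a1. Other genes of small counts were named after their values were seen. Of the 16432 gene IDs 16233 were found in a table of gene names. Exon lengths are of GENCODE M21. Sequences are RefSeq's, with no entry used for C1qa, Csf1r and Tyrobp. A gene of the list of other macrophage genes is not reported here.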

Additional observations from a re-analysis of the deposited data

How the results depend on the processing

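No paired analysis was possible because the labels give no replicate numbers, and those used here only name the libraries. Against the Cre control 4 markers and 2849 genes were called, with 1 to 4 markers and 1168 to 3854 genes when a library was left out. Against the floxed control 5 markers and 2196 genes were called, with 0 to 5 markers and 186 to 3752 genes when a library was left out. That gene count was 3596 in 1 fit of all 8 libraries, 4095 in the authors' deposited table and 3554 at a threshold of 0.1. Leaving out floxed control replicate 1 or 2 left 0 markers called, with the lone control library assumed to vary like the other group. Between the controls 0 markers were called under all alternatives, and 2 genes by limma, 86 by DESeq2, 36 in the authors' deposited table, 1 in the fit of all 8 libraries and 1 to 102 with a library left out.

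In both Cre-Idh1 comparisons the markers tested were higher in Cre-Idh1 under every alternative that gave a value. Between the controls directions turned for C1qb (-0.060 to 0.024 on the log2 scale with a library left out), C1qc (-0.14 to 0.29), Cd68 (-0.047 to 0.12, and -0.036 with scaling to total reads), Tyrobp (-0.50 to 0.017) and Lyz2 (-0.36 to 0.21), and the cause was not tested. Of other genes named as called, 13 of 24 against the Cre control and 5 of 19 against the floxed control stayed called whichever library was left out. The 13 include Trem2 and Ccl2, which entered the test against the Cre control through their Cre-Idh1 libraries, so these calls count as no support. With 5 to 20 reads in each control library, C1qa limits what its comparison can show.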

Other observations

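Esr1, the oestrogen receptor gene, had normalized counts of 2529, 2128 and 2209 in the Cre-Idh1 libraries and 1860, 1922 and 1599 in the Cre control libraries. It had 117 and 105 in the floxed control libraries, which carry no Cre.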
